A study of Mus musculus with 3 samples.

Results

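Complex I mRNAs encoded by the mouse mitochondrial genome are the subject here: mt-Nd1, mt-Nd2, mt-Nd3, mt-Nd4, mt-Nd4l, mt-Nd5 and mt-Nd6. They were taken by gene symbol, by a rule that uses no measured value, though earlier results of these data were known when they were chosen. All 7 were found among the 55536 annotated genes in the tables. The RNA came from the nuclear fraction of C57BL/6J mouse macrophages differentiated from bone marrow (BMDM), and was sequenced as total RNA after ribosomal RNA depletion. The labels name the fraction nucleoplasmic in one place and nuclear in another. The cells had received lipid A, the membrane anchor of bacterial endotoxin, at 100 ng/ml for 12 h, were held for 12 h after washout, and were collected 15 min into a second exposure to 100 ng/ml. The 3 libraries, biological replicates 1, 2 and 3, are the whole series and form 1 group. No untreated, cytoplasmic or whole-cell library was analysed here, so the values are levels in this group and say nothing of induction or of enrichment in the nucleus. RNA input was 500 ng for replicate 2 and 1 µg for replicates 1 and 3. The libraries carry the same donor identifier, and sex and age were not collected. Separate mice or cultures are not named in the sources used here, so errors and p-values measure only the spread between these samples, which may be technical.

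Complex I (NADH:ubiquinone oxidoreductase) is the first and largest enzyme of the respiratory chain. It passes electrons from NADH to ubiquinone and pumps protons across the inner mitochondrial membrane. The mitochondrial genes supply the hydrophobic core subunits of its membrane arm, and nuclear genes supply the rest. Each strand of the circular mitochondrial genome is transcribed as a long precursor that is cut into single RNAs, mostly at the flanking tRNAs. In macrophages, complex I activity is known to change with endotoxin exposure.

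In mm10 coordinates, mt-Nd1 (ENSMUSG00000064341.1) lies at chrM:2751-3707, mt-Nd2 (ENSMUSG00000064345.1) at chrM:3914-4951 and mt-Nd3 (ENSMUSG00000064360.1) at chrM:9459-9806. Next come mt-Nd4l (ENSMUSG00000065947.3) at chrM:9877-10173, mt-Nd4 (ENSMUSG00000064363.1) at chrM:10167-11544 and mt-Nd5 (ENSMUSG00000064367.1) at chrM:11742-13565. These 6 are annotated on the plus strand, and mt-Nd6 (ENSMUSG00000064368.1), at chrM:13552-14070, is alone on the minus strand. All are protein-coding. The mRNAs were 297 bases (mt-Nd4l) to 1824 bases (mt-Nd5) long. The first 30 bases of each, from the GENCODE M21 transcripts, are shown because they hold the start codons, given in capitals, and because the strands differ visibly in base composition.
mt-Nd1: GTGttctttattaatatcctaacactcctc
mt-Nd2: ATAaatcctatcacccttgccatcatctac
mt-Nd3: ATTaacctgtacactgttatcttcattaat
mt-Nd4: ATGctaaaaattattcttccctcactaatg
mt-Nd4l: ATGccatctaccttcttcaacctcaccata
mt-Nd5: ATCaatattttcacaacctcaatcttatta
mt-Nd6: ATGaataattatatttttgttttaagttca
Only mt-Nd4, mt-Nd4l and mt-Nd6 begin with ATG, and the other starts are among those the mitochondrial code allows. Guanine made up 28.1% of mt-Nd6 and cytosine 5.97%. In the other 6 mRNAs guanine made up 8.0% (mt-Nd2) to 11.6% (mt-Nd1) and cytosine 22.1% (mt-Nd3) to 29.97% (mt-Nd4l).

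Neighbouring members share bases at 2 places, so a read there covers bases of both genes. mt-Nd4l and mt-Nd4 overlap by 7 bases on the same strand, chrM:10167-10173, a stretch that holds both the stop codon of mt-Nd4l and the start codon of mt-Nd4. The end of mt-Nd4l (40 bases) and the start of mt-Nd4 (40 bases) show the shared stretch in capitals.
mt-Nd4l: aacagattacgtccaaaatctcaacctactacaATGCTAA
mt-Nd4: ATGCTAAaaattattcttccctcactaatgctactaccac
mt-Nd5 and mt-Nd6 overlap end to end by 14 bases on opposite strands, chrM:13552-13565. The sources used here do not say whether counting was strand-specific, and the signal tracks listed in the accompanying notes name no strand. Reads of mt-Nd6 and of RNA from the opposite strand therefore cannot be told apart. This holds along the whole of mt-Nd6, not only in the overlap, and bears on all its values below.

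Copies of mitochondrial DNA in nuclear chromosomes bear on 3 of the members. A block of 7 unprocessed pseudogenes on the minus strand of chromosome 1, chr1:24611535-24616197, matches mitochondrial genes at 99% identity or more, and 3 of them match complex I genes. Gm28438 matched bases 1 to 345 of the 348 bases of mt-Nd3 at 99.7%. Gm10222 matched bases 1 to 294 of mt-Nd4l, and Gm28439 matched bases 1 to 876 of the 1378 bases of mt-Nd4, both at 100%. Gm28438 differs from mt-Nd3 by T3C, with the mt-Nd3 base first and positions counted from 1 at the 5′ end of the mRNA. The 33-base starts of mt-Nd3 (chrM:9459-9491, plus strand) and Gm28438 (chr1:24613087-24613119, minus strand) are shown with this base in capitals, since no other base over the matched length tells a read of one from a read of the other.
mt-Nd3: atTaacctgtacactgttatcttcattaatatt
Gm28438: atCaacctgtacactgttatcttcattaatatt
Less similar copies of mt-Nd2, mt-Nd5 and mt-Nd6 (92.4% to 96.7%) held at most 1 expected count in any library. For mt-Nd1 no annotated transcript outside the mitochondrial genome passed 90% identity over 100 bases. Only annotated transcripts were searched, so copies without annotation would be missed.

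The authors' tables split the reads of each pair between the member and its copy, and the split differed between libraries and between quantifications. The deposited values come as a gene table with the columns RSEM writes (RSEM-format) and a transcript table with the columns kallisto writes (kallisto-format), both from the same libraries. Expected counts of mt-Nd3 were 2284, 2410 and 2001 in replicates 1, 2 and 3, and those of Gm28438 were 3318, 3094 and 85.9. mt-Nd3 held 100% of its pair in each library in kallisto-format, after rounding, and 40.8%, 43.8% and 95.9% in RSEM-format. mt-Nd4l held 100% of its pair with Gm10222 in each library in kallisto-format and 45.1%, 20.95% and 58.6% in RSEM-format. mt-Nd4, whose second part has no annotated copy, held 81.0%, 60.7% and 58.9% in kallisto-format and 93.6%, 68.2% and 70.8% in RSEM-format. Added together, all 9 RSEM-format pair sums (3 pairs in 3 libraries) were whole numbers within 0.02 counts. The authors' posterior SD of the count was 9.42% to 12.1% of the count for mt-Nd3, 8.44% to 11.2% for mt-Nd4l and 0.380% to 0.759% for mt-Nd4. Levels are therefore given as deposited and with the copy's reads pooled with the member. Where kallisto-format is not named, deposited values are those of the RSEM-format table. Within a table, pooling gives the most that the member can hold of the reads assigned to the pair. It does not show which genome the RNA came from.

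**Figure D1:**
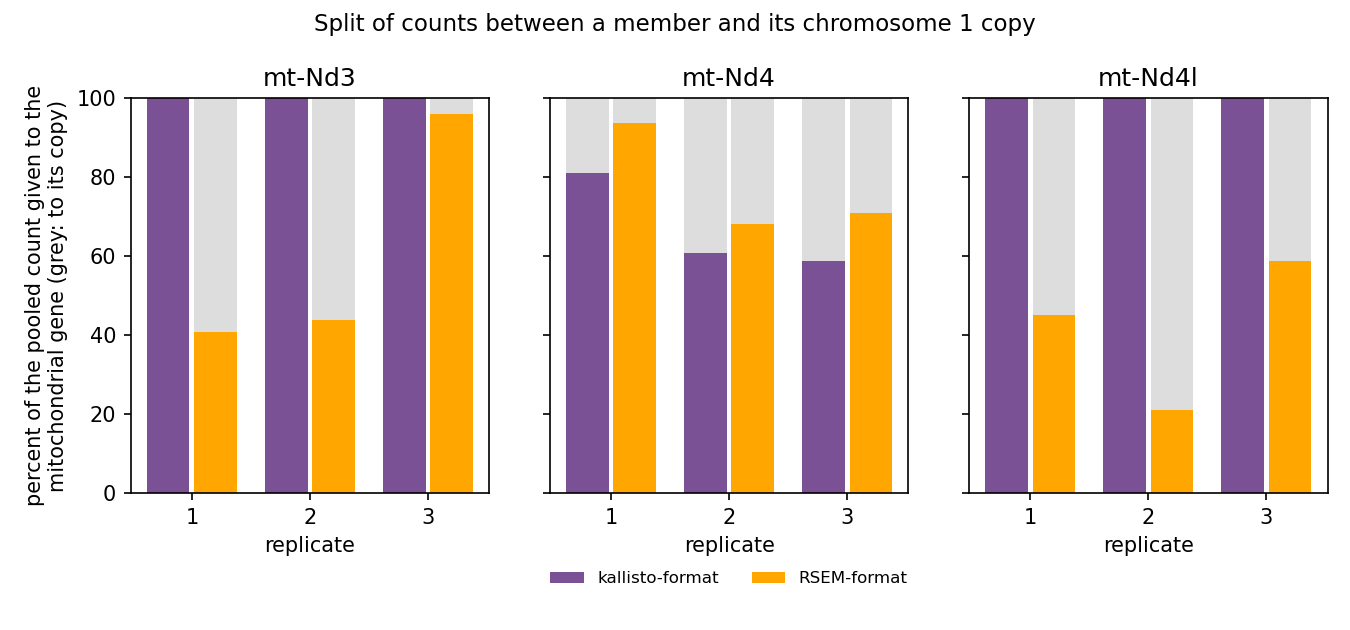
Percent of the reads of a mitochondrial gene and its chromosome 1 copy that the deposited tables gave to the mitochondrial gene (y axis, coloured part of each bar), by replicate (x axis) and quantification; the grey part went to the copy. kallisto-format gave mt-Nd3 and mt-Nd4l 100% of their pairs, while RSEM-format shares lie at 40.8%, 43.8% and 95.9% for mt-Nd3 and at 45.1%, 20.95% and 58.6% for mt-Nd4l.

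mt-Nd6, the subunit encoded on the other strand, had the highest RSEM-format level in every library, with 3643, 4402 and 2945 TPM (abundance per length, scaled to a fixed sum per library) in replicates 1, 2 and 3, and 3663 ± 728 TPM on average (SD, n = 3). In kallisto-format it had 1109, 2297 and 329 TPM, and mt-Nd4l was above it in replicate 2 with 2714 TPM. In RSEM-format its values spread least of the 7, with a ratio of highest to lowest library of 1.49. As the strand setting is not given, the mt-Nd6 values may include reads of RNA from the opposite strand.

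mt-Nd5, one of the proton-pumping subunits, had 2312, 3610 and 1441 TPM (2455 ± 1091, SD, n = 3). mt-Nd1, which lies where the membrane arm meets the peripheral arm and helps form the ubiquinone site, had 2438, 3857 and 996 TPM (2430 ± 1430). mt-Nd4, another of the pumping subunits, had 2191, 2856 and 887 TPM (1978 ± 1002). All 3 were highest in replicate 2 and lowest in replicate 3. With its copy pooled, mt-Nd4 had 2341, 4189 and 1253 TPM (2595 ± 1484).

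mt-Nd2, a pumping subunit as well, had 1155, 2006 and 459 TPM (1207 ± 775, SD, n = 3), the widest spread of the 7, with a highest to lowest ratio of 4.37. mt-Nd4l, a small subunit of the membrane arm, had 1651, 1300 and 1068 TPM (1340 ± 294). As deposited it was the only member that was highest in replicate 1. Pooled with Gm10222 it had 3662, 6204 and 1821 TPM (3896 ± 2201), which puts replicate 2 highest and replicate 3 lowest, as in the other members. mt-Nd3, a small subunit beside mt-Nd1, was lowest of the 7 in every library with 480, 704 and 377 TPM (520 ± 167). Pooled with Gm28438 it had 1178, 1607 and 394 TPM (1060 ± 615).

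**Figure D2:**
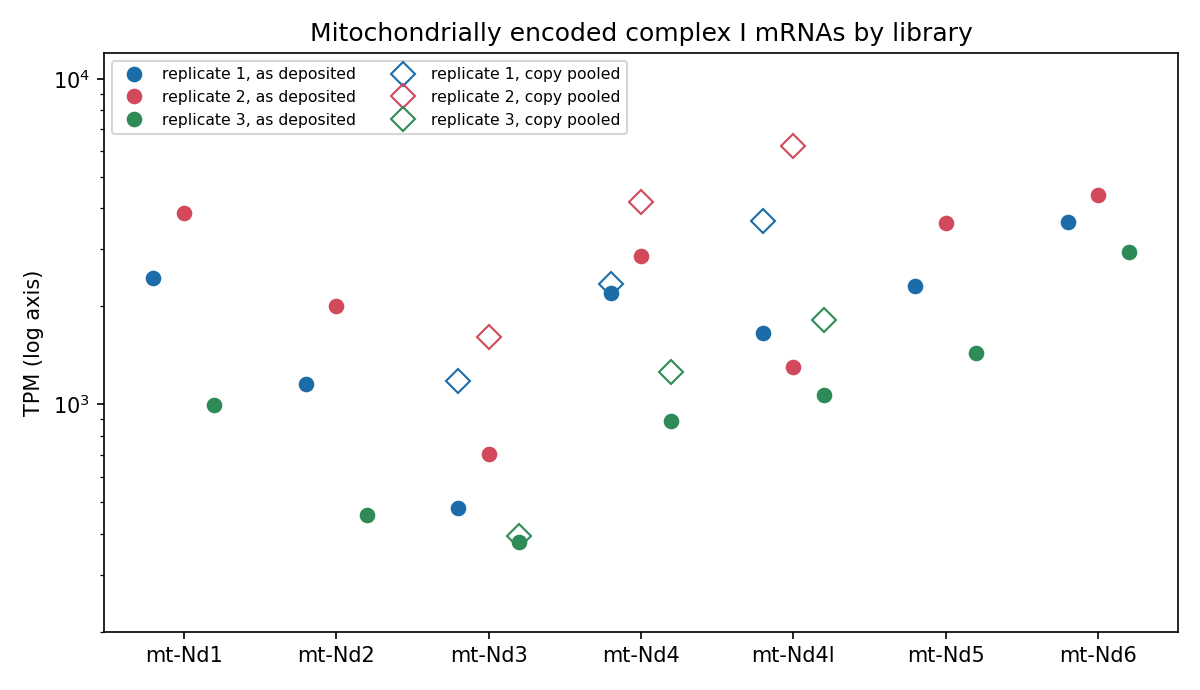
TPM of each of the 7 mRNAs (log y axis) in replicates 1, 2 and 3; filled circles are deposited values, and open diamonds add the reads of the near-identical chromosome 1 copy for mt-Nd3, mt-Nd4 and mt-Nd4l. mt-Nd6 lies between 2945 and 4402 TPM, and pooling moves mt-Nd4l to between 1821 and 6204 TPM.

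Ordered by mean RSEM-format level, the members ran mt-Nd6, mt-Nd5, mt-Nd1, mt-Nd4, mt-Nd4l, mt-Nd2 and mt-Nd3. The step from mt-Nd6 to mt-Nd5 was 0.66 ± 0.37 on the log2 scale (SD, n = 3), that from mt-Nd1 to mt-Nd4 was 0.25 ± 0.16, and that from mt-Nd2 to mt-Nd3 was 1.02 ± 0.65. Each exceeded its SD and had the same sign in 3 of 3 libraries. The steps from mt-Nd5 to mt-Nd1, mt-Nd4 to mt-Nd4l and mt-Nd4l to mt-Nd2 were smaller than their SD, so these neighbours were not separated. With copies pooled, mt-Nd4l came first and mt-Nd6 after it, with a step of -0.06 ± 0.60 that did not separate them, followed by mt-Nd4, mt-Nd5, mt-Nd1, mt-Nd2 and mt-Nd3. There the step from mt-Nd2 to mt-Nd3 was 0.17 ± 0.18, positive in 2 of 3 libraries, and no longer separated them. Among 22028 protein-coding genes the RSEM-format means ranked mt-Nd6 as number 4, mt-Nd5 as 5, mt-Nd1 as 6, mt-Nd4 as 10, mt-Nd4l as 18, mt-Nd2 as 20 and mt-Nd3 as 39. With copies pooled the ranks were 5 for mt-Nd4l, 7 for mt-Nd6, 9 for mt-Nd4, 10 for mt-Nd5, 11 for mt-Nd1, 23 for mt-Nd2 and 25 for mt-Nd3.

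mt-Nd6 was set against the median of the other 6 members within each library, with the limit on strand given above. On the log2(TPM + 1) scale mt-Nd6 stood at 11.83, 12.10 and 11.52 and the other 6 at a median of 10.89, 11.23 and 9.88. The difference was 0.94, 0.88 and 1.65, or 1.15 ± 0.43 on average (SD, n = 3), positive in 3 of 3 libraries. An exact two-sided sign-flip test gave p = 0.25, the smallest value 3 libraries allow. With copies pooled the difference was 0.65, 0.24 and 1.40 (0.76 ± 0.59). The largest value came from replicate 3 in both versions, where the other 6 mRNAs were lowest. mt-Nd6 made up 26.3%, 23.5% and 36.0% of the members' summed TPM in replicates 1, 2 and 3 as deposited. With copies pooled it made up 21.8%, 17.0% and 31.6%, and mt-Nd4l made up 21.9%, 24.0% and 19.6%.

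Short mRNAs have few possible fragment positions, and the deposited effective lengths, which correct for this, differed between libraries. The annotated length of mt-Nd5 exceeded its effective length by an amount that corresponds to a mean fragment of 224 and 220 bases in replicates 1 and 2 and of 184 bases in replicate 3. For mt-Nd4l, with 297 bases, the effective length was 85.0, 86.1 and 118 bases. The part of this correction in the levels of mt-Nd3 and mt-Nd4l was not tested.

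The share of complex I mRNA was highest in replicate 2 and lowest in replicate 3. The 7 members together took 1.39%, 1.87% and 0.817% of all TPM in replicates 1, 2 and 3 (1.36% ± 0.53, SD, n = 3). Of the expected counts they took 374829, 391724 and 183644, which is 1.57% (exact binomial 95% interval 1.57% to 1.58%), 2.03% (2.02% to 2.03%) and 0.845% (0.841% to 0.849%). The intervals cover counting error only. With copies pooled the shares of TPM were 1.67%, 2.59% and 0.931%. Replicate 2, with the lower RNA input, was highest and replicate 3 lowest. Input cannot be told apart from the library, since only replicate 2 had the lower input, and in bulk RNA fewer cells of a type and less RNA per cell cannot be told apart.

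Each library was then tested against the other 2 across all genes with edgeR's quasi-likelihood test on rounded expected counts, calling genes at a Benjamini-Hochberg adjusted p under 0.05. This compares libraries, not conditions, and the single library on one side is assumed to vary like the other 2, so a call describes that library under this assumption. In replicate 3 against replicates 1 and 2, 0 of 7 members passed, against 0.00697% of the 14350 genes tested. Unadjusted p-values under 0.05 were reached by 3 members, and 6 of 7 fold changes were negative, with a median of -0.87 on the log2 scale against -0.02 over all genes tested. The log2 fold change was -1.58 for mt-Nd2 (SE 0.38), -1.45 for mt-Nd1 (SE 0.39) and -1.34 for mt-Nd4 (SE 0.37), against -0.16 for mt-Nd6 (SE 0.31), and edgeR's adjusted p was 1.00 for each after rounding. mt-Nd2, mt-Nd1 and mt-Nd4 did pass with DESeq2 (adjusted p = 0.0103, 0.0174 and 0.0208, where 0.23% of genes passed) and in edgeR without the filter on low counts (0.662% of genes passed). With copies pooled, all 7 fold changes were negative, with a median of -1.19, 5 members had unadjusted p-values under 0.05 and 0 passed in edgeR (lowest adjusted p = 0.52).

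The 1 gene that edgeR called in replicate 3 was Gm28438, the copy of mt-Nd3. It had 85.9 expected counts in replicate 3, against 3318 and 3094 in replicates 1 and 2, and a log2 fold change of -5.15 (SE 0.32, edgeR adjusted p = 0.00533). The authors' posterior SD of its count in replicate 3, 189 counts, was larger than the count itself, and the test takes no account of it. mt-Nd3 itself had a log2 fold change of -0.17 (SE 0.25). The sum of both was 2087 in replicate 3, against 5602 and 5504 in replicates 1 and 2, a log2 fold change of -1.35 (SE 0.27). In kallisto-format Gm28438 held at most 0.119 counts in any library, and with copies pooled edgeR called 0 genes in this comparison, with 538 of 14344 genes at an unadjusted p under 0.05.

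In replicate 2 against replicates 1 and 3, edgeR called 0 of 7 members, as it called 0% of the 14350 genes, and 0 members had an unadjusted p under 0.05. Of the 7 fold changes 6 were positive, with a median of 0.66 against -0.01 over all genes tested, and mt-Nd4l was the exception at -0.47 (SE 0.23). With copies pooled, all 7 fold changes were positive, mt-Nd4l among them, with a median of 0.80. DESeq2 also called 0 members, against 0.125% of genes, with 3 members at an unadjusted p under 0.05. In replicate 1 against replicates 2 and 3, edgeR called 0 of 7 members, against 0.202% of the genes tested, and DESeq2 also called 0, against 0.53%. In both tools 0 members had an unadjusted p under 0.05. The median log2 fold change of the members there was 0.07. The 3 comparisons share their libraries, so their fold changes are not independent.

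Spread over the 3 libraries was also described as the SD of log2(TPM + 1). Among 278 nuclear-encoded protein-coding genes with a mean of at least 100 TPM, the median SD was 0.23 and the percentile 95 was 0.54. mt-Nd2 had 1.07, mt-Nd1 0.99, mt-Nd4 0.88 and mt-Nd5 0.66, all above that percentile. mt-Nd3 had 0.45, mt-Nd4l 0.31 and mt-Nd6 0.29, below it. With copies pooled mt-Nd3 had 1.06 and mt-Nd4l 0.89, which left mt-Nd6 as the member below it.

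The 6 other mitochondrial mRNAs encode subunits of cytochrome c oxidase (mt-Co1, mt-Co2, mt-Co3), ATP synthase (mt-Atp6, mt-Atp8) and complex III (mt-Cytb). The members minus these, as a difference of list medians on the log2 scale, gave 0.92, 1.02 and 0.48, or 0.81 ± 0.29 (SD, n = 3, exact two-sided sign-flip p = 0.25, the smallest possible). The sign turned with the handling of copies. With copies pooled the members were lower in 3 of 3 libraries, by -1.16, -0.74 and -0.72 (-0.87 ± 0.25), and the kallisto-format TPM gave -0.44 ± 0.14. The 3 lowest of the other mRNAs by deposited mean were mt-Co2, mt-Atp6 and mt-Co3, which have copies in the same block. mt-Co2 had 131, 88.1 and 118 TPM as deposited and 6389, 6586 and 2764 TPM pooled with Gm28661. mt-Atp6 had 451, 596 and 194 TPM as deposited and 4269, 6306 and 1724 TPM pooled with Gm10925. Without mt-Atp8, a very short gene with 8459, 20113 and 2489 TPM, the deposited difference was 1.71 ± 0.59. Complex I mRNAs made up 37.8%, 32.9% and 43.8% of the TPM of the 13 mitochondrial mRNAs as deposited, and 31.4%, 32.4% and 37.1% with copies pooled.

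All 6 of these mRNAs were also lowest in replicate 3 once copies were pooled, by 0.66 (mt-Co1) to 1.59 (mt-Atp8) below their own mean on the log2 scale, and the 7 members were below theirs by 0.30 (mt-Nd6) to 1.20 (mt-Nd3). The mitochondrial rRNAs went the other way. mt-Rnr1, the small-subunit rRNA, had 1492 TPM in replicate 3 against 355 and 151 TPM in replicates 1 and 2. mt-Rnr2, the large-subunit rRNA, had 1439 TPM in replicate 3 against 305 and 59.5 TPM in replicates 1 and 2. Their log2 fold changes were 2.70 (SE 0.51, edgeR adjusted p = 0.509) and 3.06 (SE 0.80, edgeR adjusted p = 1.00), so edgeR called 0 of 2, with both at an unadjusted p under 0.05, and DESeq2 called 0. Effective lengths in replicates 1, 2 and 3 were 22.4, 21.7 and 38.8 bases for mt-Atp8 and 130, 132 and 166 for mt-Nd3. On counts scaled to a common total, replicate 3 over replicate 2 gave log2 -1.94 for mt-Nd2 and -1.57 for pooled mt-Nd3. These ratios compare replicate 3 with replicate 2 only, and the values above compare it with each gene's mean. Their orders are therefore not directly comparable. The parts of rRNA removal and of effective length in the members' levels were not tested.

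**Figure D3:**
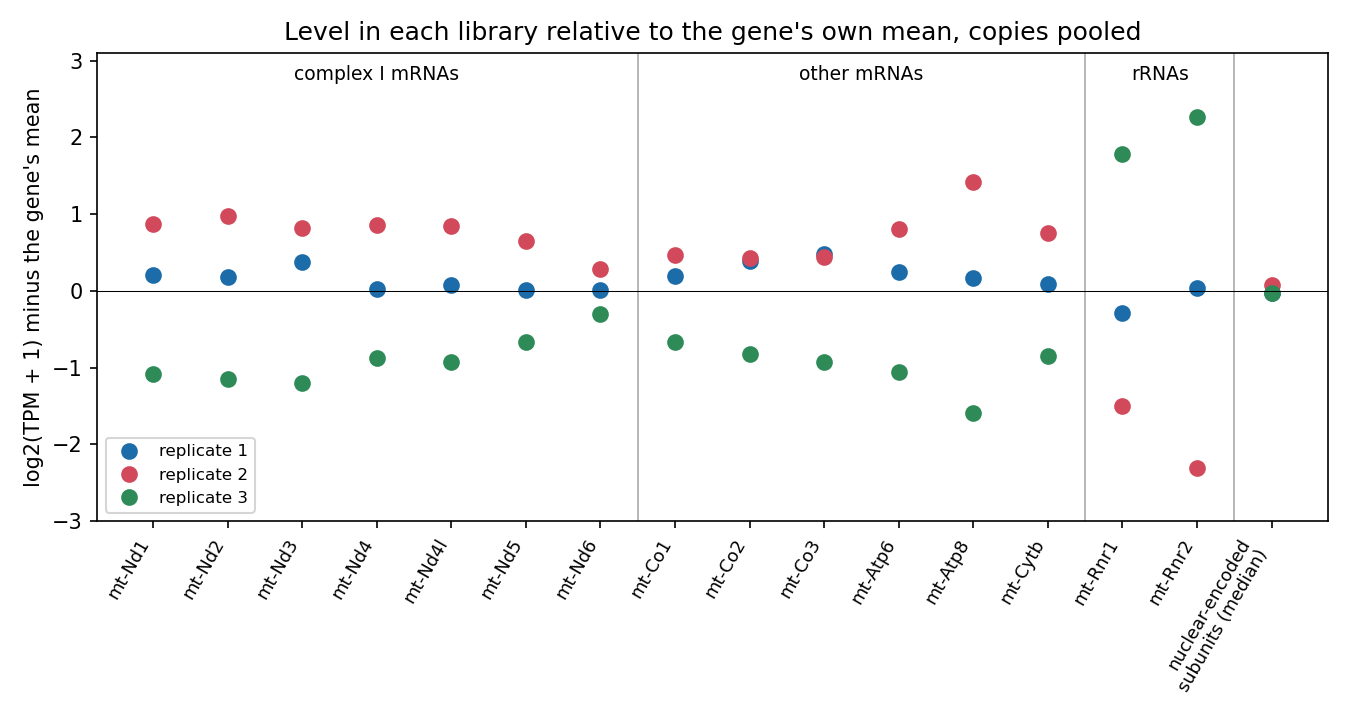
log2(TPM + 1) of each gene in each library minus the gene's mean over the 3 libraries, with chromosome 1 copies pooled (y axis), for the 7 complex I mRNAs, the 6 other mitochondrial mRNAs, the 2 rRNAs and the median of the nuclear-encoded subunits (x axis). Replicate 3 is lowest for all 13 mRNAs, by 0.30 for mt-Nd6 and 1.20 for mt-Nd3, and highest for both rRNAs.

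The nuclear-encoded subunits of the same enzyme were far lower, and their list median was nearly level between the libraries. All 37 of 37 listed subunits were detected, meaning at least 1 TPM in each library, and their mean levels ran between 3.16 TPM (Ndufb6) and 22.0 TPM (Ndufb8). The highest value of any of them in any library was 26.9 TPM, and the lowest value of any member was 377 TPM. On the log2 scale the members had a median of 11.10, 11.48 and 9.96 in replicates 1, 2 and 3 and the nuclear-encoded subunits a median of 3.41, 3.32 and 3.43. The difference was 7.69, 8.16 and 6.53, or 7.46 ± 0.84 (SD, n = 3, exact two-sided sign-flip p = 0.25, the smallest possible), and 7.75 ± 0.86 with copies pooled. The difference was smallest in replicate 3, where the members were lowest. All these are levels in a nuclear fraction, so the difference does not give the relative expression of both genomes in the whole cell.

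Ndufb8, an accessory subunit of the membrane arm, had 23.7, 23.9 and 18.5 TPM (22.0 ± 3.1, SD, n = 3). Ndufa3, another accessory subunit, had 16.8, 26.9 and 19.1 TPM (20.95 ± 5.31), and Ndufb6 had 3.46, 2.76 and 3.25 TPM (3.16 ± 0.36). Of the 37, edgeR called 0 in each library comparison, with 0, 1 and 0 at an unadjusted p under 0.05 for replicates 1, 2 and 3, and DESeq2 called 0. Single subunits varied more than their median, as in Ndufc1, named after its values were seen, with 5.64, 1.65 and 5.48 TPM. The members' median log2 fold change was 0.66 in replicate 2 and -0.87 in replicate 3. That of the nuclear-encoded subunits was -0.18 in replicate 2, with 8 of 37 positive, and 0.13 in replicate 3, with 28 of 37 positive. These directions depended on the measure. Relative to each subunit's own mean log2(TPM + 1), their median was 0.08 in replicate 2 and -0.03 in replicate 3. Their summed TPM was 382, 413 and 383 in replicates 1, 2 and 3, though their list median was lowest in replicate 2.

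Assembly factors, which build the enzyme without staying in it, were lower still. Of 16 measured, 15 were detected. Foxred1 had 12.0, 13.1 and 13.8 TPM (12.9 ± 0.9, SD, n = 3), Tmem126b, a membrane-arm assembly factor, had 6.49, 7.53 and 5.38 TPM (6.47 ± 1.08), and Nubpl, which delivers iron-sulfur clusters, was lowest with 1.08, 1.41 and 0.99 TPM (1.16 ± 0.22). In each library comparison edgeR and DESeq2 called 0 of the 16, with 0 at an unadjusted p under 0.05.

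Nuclear genes for mitochondrial transcription, replication and RNA processing were detected in 19 of 19 cases. Fastk, whose mitochondrial form is known to be needed for mt-Nd6 mRNA, had the highest level with 16.03, 18.6 and 17.0 TPM (17.2 ± 1.3, SD, n = 3). Mterf3, a regulator of mitochondrial gene expression, had 13.8, 19.7 and 12.3 TPM (15.2 ± 3.9), and Twnk, the helicase of mitochondrial DNA replication, was lowest with 1.39, 1.12 and 1.35 TPM (1.29 ± 0.15). Their list median on the log2 scale was 2.78, 2.74 and 2.13 in replicates 1, 2 and 3. Gene by gene they were not lower as a set in replicate 3. Their median log2 fold change there was -0.09, with 9 of 19 positive. In each library comparison edgeR and DESeq2 called 0 of the 19, and 1 had an unadjusted p under 0.05, in edgeR for replicate 2.

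**Figure D4:**
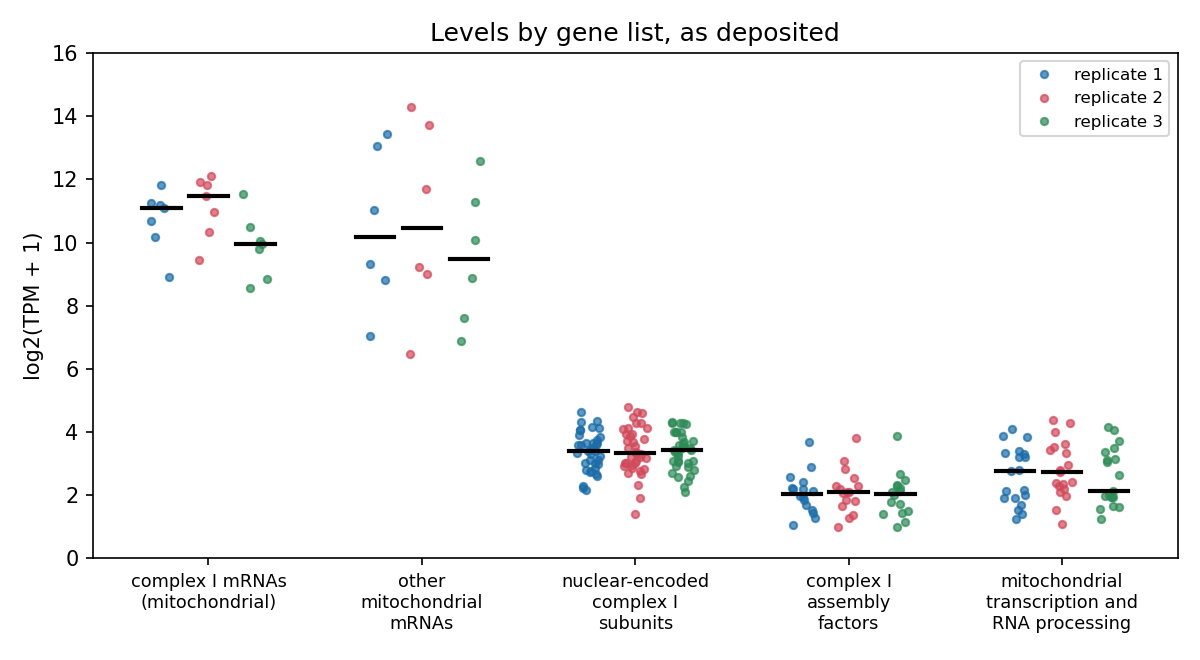
log2(TPM + 1) as deposited (y axis) of every measured gene of 5 lists (x axis), in replicates 1, 2 and 3; each point is a gene in a library and each black bar a list median. In these nuclear-fraction libraries the complex I mRNAs of the mitochondrial genome lie above every nuclear-encoded subunit, with medians of 11.10, 11.48 and 9.96 against 3.41, 3.32 and 3.43.

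The kallisto-format tables gave lower TPM for the members. mt-Nd1 had 773, 1819 and 110 TPM in kallisto-format, against 2438, 3857 and 996 TPM in RSEM-format. The log2 ratio of kallisto-format to RSEM-format TPM averaged -0.75 (mt-Nd4l) to -2.13 (mt-Nd4) over the members, with a median of -1.94. On counts scaled to a common total over annotated genes, with copies pooled, it lay between -0.34 (mt-Nd2) and -0.08 (mt-Nd4l). As deposited, mt-Nd4l had 14022, 23988 and 8318 counts in kallisto-format, against 5131, 2900 and 4005 in RSEM-format, ratios of 2.73, 8.27 and 2.08. Pooled with Gm10222 these ratios were 1.23, 1.73 and 1.22. For mt-Nd1, mt-Nd2, mt-Nd5 and mt-Nd6, which have no annotated near-identical copy, they lay between 1.06 and 1.55. Replicate 3 was lowest for all 7 members in both tables once copies were pooled.

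Genes outside the mitochondrial genome were ranked by how closely their library pattern followed that of the members, as the Euclidean distance between centred log2(TPM + 1) values over the 3 libraries among 4519 genes with a mean of at least 10 TPM. The members' median pattern as deposited, without pooling of copies, was 0.18, 0.66 and -0.67 in replicates 1, 2 and 3. The closest were Tfrc, the transferrin receptor, at a distance of 0.159, and Cd53, a leukocyte tetraspanin, at 0.162. Slc40a1, the iron exporter ferroportin, followed at 0.169, Zfp973, a zinc finger gene, at 0.181, and the pseudogene Rpl31-ps8 at 0.183. Tfrc had 73.1, 94.9 and 42.4 TPM. The ranking depended on the copies. With copies pooled the members' pattern was 0.08, 0.84 and -0.93, Tfrc lay at a distance of 0.445, and 2 of the 5 genes, Rpl31-ps8 (0.310) and Slc40a1 (0.347), stayed among the closest 5. With 3 libraries many patterns can lie this close, and no test was made.

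Over annotated genes the libraries held 23826101, 19312032 and 21730342 expected counts in replicates 1, 2 and 3. The macrophage label was checked against markers. Of 10 macrophage markers 10 were detected, among them Lyz2 with 1616 ± 464 TPM and Adgre1, a surface marker, with 654 ± 199 TPM (SD, n = 3), while 0 of 8 granulocyte, 0 of 7 T and B cell and 0 of 6 fibroblast markers were. The summed granulocyte markers had 3.77, 2.34 and 1.55 TPM and the summed T and B cell markers 0.93, 0.75 and 0.71 TPM, and Retnlg, Elane and Pdgfra were at 0 in all 3 libraries. Nuclear noncoding RNAs were abundant, as in Rn7sk with 306158 ± 25003 TPM, and with a fixed TPM sum such RNAs leave less TPM for the members.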

How the data were processed

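Total RNA-seq of 3 nuclear-fraction libraries was analysed from the deposited tables, whose genome is mm10 and annotation GENCODE M21, per the file headers and notes. In the gene table, the deposited expected counts are estimates per gene with no scaling between libraries. The deposited TPM values sum to a fixed total per library, and the deposited FPKM values are per length and depth. Estimated counts and TPM of the kallisto-format transcript table were summed per gene. No label, header or note used here gives the tools behind both tables, their versions or the strand setting. The deposited tables also give the authors' posterior SD of each count, an error of the read assignment and not of replicates.

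The 26345 rows without an annotated gene (numeric identifiers, ERCC and phiX) were left out; they held 0.827%, 0.275% and 0.0547% of expected counts in replicates 1, 2 and 3. The 3 libraries form 1 group. Members and gene lists were chosen with earlier results of these data known. Named by rule were all 7 members, the other mitochondrial mRNAs, near-identical copies, the 2 highest and the lowest gene of each list, and the 5 genes of most similar pattern; Elane and Ndufc1 were named after their values were seen. Of the listed symbols, 2 were not matched. Levels were compared as log2(TPM + 1). Copies were sought only among the GENCODE M21 transcripts, with blastn 2.17.0 (90% identity over 100 bases, pooled at 99%). A pooled TPM is the member's TPM times the pooled over the member's count. Expected counts were rounded for edgeR 4.0.16 (TMM, filterByExpr) and DESeq2 1.42.0 in R 4.3.3, and the edgeR test was tested on simulated data; the rest used Python 3.11.15. Alternatives covered pseudocount, unit, quantification, scaling, filter, tool and each replicate left out. Pooling of copies was chosen after seeing the data.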

Additional observations from a re-analysis of the deposited data

Results flagged for a closer look

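The 22 mitochondrial tRNA genes, which punctuate the precursors of the complex I mRNAs, held 1432, 1804 and 1311 estimated counts in the kallisto-format tables of replicates 1, 2 and 3 and 0 expected counts in the RSEM-format tables. They were singled out because the comparisons above do not use them and their counts exceeded a floor of 3 counts per gene, the upper limit for a gene with none, in 16, 19 and 15 of the 22 genes. Short RNAs have few possible fragment positions, so 0 expected counts need not mean that these tRNAs were absent. The part of gene length in this difference was not tested. No control library was analysed here.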

How the results depend on the processing

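No paired analysis was possible because the series has 1 group. The difference between mt-Nd6 and the other 6 members, and that between the members and the nuclear-encoded subunits, kept their sign under every alternative run, with 0.91 to 1.29 and 7.11 to 7.92 as each replicate was left out. The members minus the other mitochondrial mRNAs (0.70 to 0.97 without each replicate) turned to -0.44 with kallisto-format TPM, -0.87 with copies pooled and -0.66 with both; the cause of the kallisto-format turn was not tested. The members' share of TPM (1.10% to 1.63% without each replicate) was 0.575% in kallisto-format, 38.2% over the 13 mitochondrial mRNAs and 33.6% over these with copies pooled. The median member level (1539 to 2524 TPM without each replicate) was 9391 TPM after rescaling over nuclear-encoded protein-coding genes and 900.4 TPM in kallisto-format. The median log2 ratio of kallisto-format to RSEM-format (-2.42 to -1.33 without each replicate) was -0.39 with both rescaled, -0.31 as counts scaled to a common total and -0.29 with copies pooled too. The ratio turned positive for mt-Nd3 (0.20 rescaled, 0.56 as scaled counts) and mt-Nd4l (0.80, 1.32, and -1.66 to 0.088 as each replicate was left out, positive without replicate 3); the cause was not tested. Members called in replicate 3 numbered 3 with DESeq2 and 3 without the filter on low counts, against 0. Over all genes, edgeR called 29, 0 and 1 in replicates 1, 2 and 3, against 76, 18 and 33 with DESeq2, 0, 349 and 161 without the filter, 2, 0 and 1 with DESeq2 size factors and 18, 0 and 0 on kallisto-format counts. Leaving out a library leaves no residual degrees of freedom for the library tests, so these have no such value. Depth limits little here, with at least 2001 expected counts for each member in each library; 3 libraries limit every test.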
